A study of Mus musculus with 16 samples.

Results

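Small structural RNAs of the nucleus and nucleolus were examined in primary mammary tumors of *Resf1* gene trap and wildtype mice. Membership went by gene name alone, for every gene whose symbol begins with *Snora*, *Snord*, *Scarna*, *Rnu*, *Rn7s*, *Vaultrc* or *Vtrna*, together with *Rmrp*, *Rpph1* and *Terc*. The set itself was chosen with earlier results of these data known. The rule found 21 of the 23609 gene IDs in the table, with 20 distinct symbols, because *Rmrp* has 2 IDs. Both are included in the counts of RNAs below, so *Rmrp* counts 2 times there. The 21 genes were 9 H/ACA box snoRNAs, 5 C/D box snoRNAs with the U3 gene *Rnu3a* among them, 3 small Cajal body RNAs (scaRNAs), 1 RNA named as a 7S RNA (*Rn7s6*), and *Rpph1* with the 2 *Rmrp* IDs. The rule found no spliceosomal snRNA, U7, 7SK, vault or telomerase RNA among the rows used, and these are not analysed here. A rule by name cannot reach the 710 gene IDs that had no symbol, some with high values. Which RNAs those are was not examined.

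Wildtype tumors came from MMTV-PyMT mice with both *Resf1* alleles intact, and gene trap tumors from MMTV-PyMT/Resf1+/- littermates. In the latter a lentiviral trap with EGFP and Cre sits in the first exon of 1 *Resf1* allele. Both groups were F1 animals of a C57BL/6 and FVB/MMTV-PyMT cross and carried the polyoma middle T antigen, which the MMTV promoter expresses in mammary epithelium. The trap is carried by the whole animal, the stromal cells of the tumor included. RNA was isolated with Trizol and sequenced as stranded total RNA from whole tumors, and 5 tumors per group had a column named for them. In such bulk samples fewer cells of a type and less RNA per cell cannot be told apart. The labels number the tumors within a group and name no animal, so the p-values measure the spread between these tumors.

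Most of these RNAs work as guides or as catalytic cores inside protein complexes. C/D box snoRNAs carry fibrillarin and direct 2′-O-methylation, H/ACA box snoRNAs carry dyskerin and direct the change of uridine to pseudouridine, and most of their targets are ribosomal RNA. scaRNAs do the same for spliceosomal RNAs in Cajal bodies. In mammals most snoRNAs are cut from introns of host genes, whereas the RNA subunits of RNase P and RNase MRP and the 7SL RNA of the signal recognition particle are made by RNA polymerase III from genes of their own. None of them needs a poly(A) tail, so they are seen in total RNA libraries and are largely missed by poly(A) selection.

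The values were estimated counts that the authors had normalized between tumors, so their depth in reads is unknown and no counting interval could be given. The column totals of all genes lay between 31995078 and 42153593. *Resf1* (ENSMUSG00000032712), the trapped gene, was at 4215, 4397, 3881, 4487 and 3517 in wildtype replicates 1 to 5 and 4029, 3066, 3686, 3392 and 3409 in gene trap replicates 1 to 5. The highest gene trap tumor, replicate 1, lay inside the wildtype range. The log2 fold change of *Resf1* was -0.22 (standard error 0.09), with an unadjusted limma p of 0.0313 and an exact permutation p of 0.0635 over the 10 tumors. Without gene trap replicate 2 the fold change was -0.17 (standard error 0.09) and limma's p was 0.0684. Of 9 lists of cell type markers, the epithelial genes *Epcam*, *Krt8*, *Krt18* and *Cdh1* were present in all tumors, with a summed value between 67574 and 91151.

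Gene trap replicate 2 had been singled out beforehand, from these same data, as a library that recovered more short transcripts. Its level of small RNAs is therefore described here and gives no separate support for that choice. The 21 small RNAs summed to 4.58% of the column total in that tumor, against 0.887% to 2.17% in wildtype tumors and 0.796% to 1.63% in the remaining 4 of the gene trap group. The lowest shares were those of gene trap replicate 1 (0.796%) and wildtype replicate 5 (0.887%). Because of that earlier choice, comparisons of the groups are given with and without gene trap replicate 2. The counts of RNAs that were higher or lower are also given without the 2 tumors at the low end.

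*Rpph1*, the RNA of RNase P, which trims the 5′ end of tRNA precursors, had the highest mean value per kilobase of the 21 genes, 995960. The gene lies on chromosome 14 and overlaps part of *Ccnb1ip1* on the same strand. The first 300 bases of its 319-base transcript, as GENCODE release 21 gives it on GRCm38, are shown because this single RNA had the highest value of the 21 IDs in all 10 tumors.
Rpph1, bases 1 to 300: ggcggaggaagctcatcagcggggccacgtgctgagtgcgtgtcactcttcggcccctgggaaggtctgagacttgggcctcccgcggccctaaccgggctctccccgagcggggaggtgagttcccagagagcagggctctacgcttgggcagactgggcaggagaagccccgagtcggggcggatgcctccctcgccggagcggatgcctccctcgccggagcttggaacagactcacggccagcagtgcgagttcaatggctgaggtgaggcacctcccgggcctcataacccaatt

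The *Rpph1* values were 208265, 419896, 245250, 404661 and 107397 in wildtype replicates 1 to 5 and 101765, 923522, 193285, 291003 and 282069 in gene trap replicates 1 to 5. Gene trap replicate 2 was above the highest wildtype tumor, and the other gene trap values fell inside or just below the wildtype range. The group means were 277094 ± 133430 in wildtype and 358329 ± 325137 in gene trap tumors (SD, n = 5 each). Without gene trap replicate 2 the gene trap mean was 217030 ± 88604 (SD, n = 4). The log2 fold change was 0.14 (standard error 0.53) with limma's unadjusted p at 0.803, and -0.31 (standard error 0.42) with p at 0.482 without that tumor, so the estimate changed sign with 1 library.

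*Rmrp*, the RNA of RNase MRP, which cuts the ribosomal RNA precursor, showed the same arrangement of tumors. It has 2 IDs on chromosome 4, one of 271 bases (ENSMUSG00000088088) and one of 281 bases (ENSMUSG00000115420). The shorter lies whole inside the longer on the same strand, so reads of the 2 IDs cannot be told apart except at the ends. In the sequence below, the capitals mark the 5 bases at each end of the longer entry that the shorter lacks.
Rmrp, 281-base entry: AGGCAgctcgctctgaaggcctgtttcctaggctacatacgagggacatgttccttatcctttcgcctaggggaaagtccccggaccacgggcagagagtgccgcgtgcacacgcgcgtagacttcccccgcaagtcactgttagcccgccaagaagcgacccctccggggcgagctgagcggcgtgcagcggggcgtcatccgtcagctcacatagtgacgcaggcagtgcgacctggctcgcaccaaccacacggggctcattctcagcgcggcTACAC

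The shorter *Rmrp* ID was at 80019, 150345, 83552, 98019.9 and 53579.7 in wildtype replicates 1 to 5 and 44762, 621097, 70559.5, 103442 and 104134 in gene trap replicates 1 to 5. Gene trap replicate 2 held 7.43 times the median of the other 9 tumors, which spanned 44762 to 150345. The longer ID was at 19271, 34405, 19686, 22763 and 11592 in wildtype replicates 1 to 5 and 9849, 150865, 15902, 24592 and 24309 in gene trap replicates 1 to 5. The ratio of the shorter to the longer stayed between 4.12 and 4.62 in all 10 tumors. For the sum of both IDs the means were 114646 ± 44062 in wildtype and 233902 ± 302375 in gene trap tumors (SD, n = 5 each), and without gene trap replicate 2 the gene trap mean was 99387 ± 35762 (SD, n = 4). The log2 fold changes of the shorter and the longer ID were 0.40 and 0.41 over 10 tumors (standard errors 0.57 and 0.58), and -0.20 and -0.21 over 9.

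*Rn7s6* on chromosome 6 is annotated as a 7S RNA, the family of the RNA scaffold of the signal recognition particle. The closest annotated transcript found, *Rn7s2*, was identical at 85% of bases. How reads were shared between such related genes is unknown, so the counts of *Rn7s6* may be uncertain.

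Unlike *Rpph1* and *Rmrp*, *Rn7s6* lay within the range of the other tumors in gene trap replicate 2. Its values were 103513, 162632, 106916, 144221 and 90152 in wildtype replicates 1 to 5 and 76649.9, 128511, 104697, 121425 and 125931 in gene trap replicates 1 to 5. The groups overlapped throughout, with the highest value in wildtype replicate 2 and the lowest in gene trap replicate 1. Its log2 fold change was -0.11 (standard error 0.20) over 10 tumors and -0.17 (standard error 0.20) over 9. *Rpph1*, the *Rmrp* IDs and *Rn7s6* together made up 91.4% to 95.4% of the summed level of the 21 RNAs, so the summed level follows these 4 IDs.

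**Figure D1:**
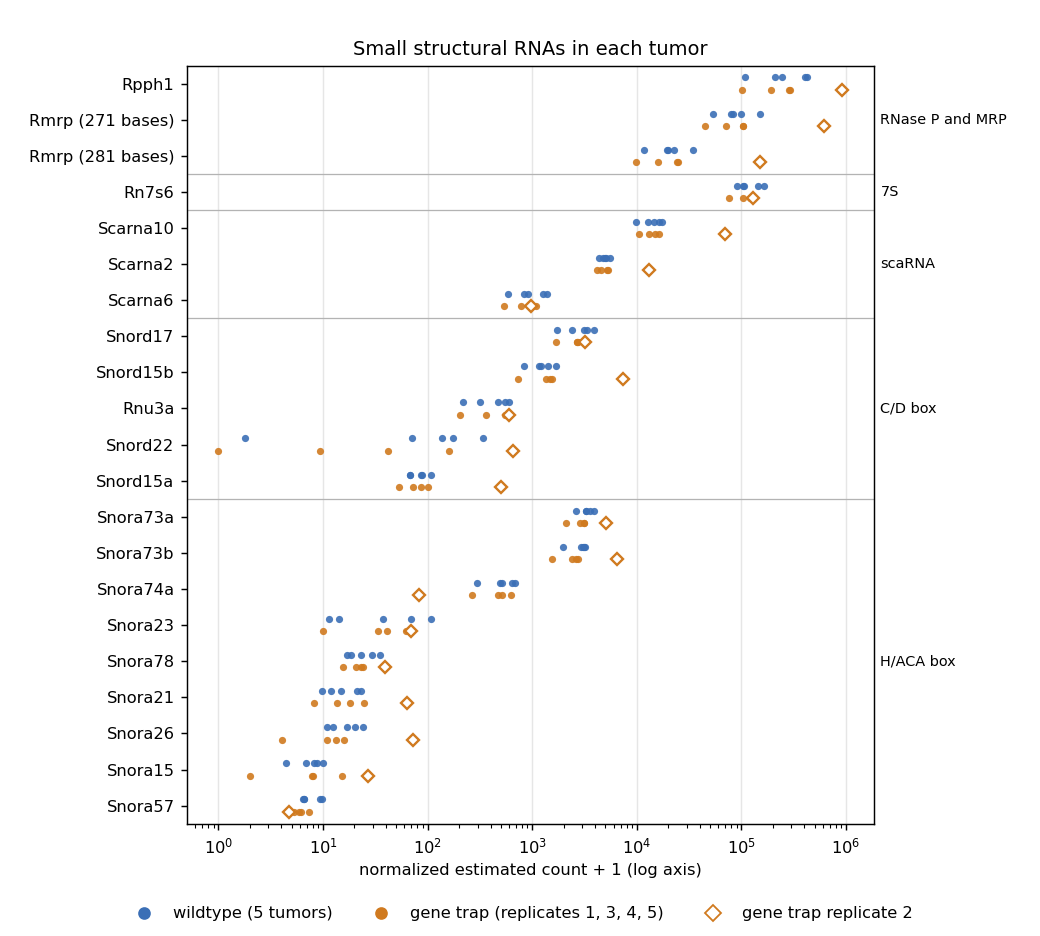
Normalized estimated count plus 1 on a log axis (x) of each of the 21 RNAs (y, ordered by class and mean) in 5 wildtype (blue) and 5 gene trap (orange) tumors, with gene trap replicate 2 as an open diamond. The diamond is the highest of the 10 points for 14 of the 21 RNAs, and the remaining points of the groups overlap.

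The 3 scaRNAs differed from one another in the same tumor. *Scarna10*, known as U85, which guides modification of U5 snRNA, lies inside *Ncapd2* on chromosome 6, and its last 300 bases are shown with the D box in capitals.
Scarna10, last 300 of 325 bases: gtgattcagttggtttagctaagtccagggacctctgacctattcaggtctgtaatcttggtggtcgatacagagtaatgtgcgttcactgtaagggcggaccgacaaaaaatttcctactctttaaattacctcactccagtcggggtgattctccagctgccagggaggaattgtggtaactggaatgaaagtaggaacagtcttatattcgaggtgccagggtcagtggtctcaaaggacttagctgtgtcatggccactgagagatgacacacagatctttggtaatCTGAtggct

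*Scarna10* was at 12862, 16241, 14506, 17523 and 9917 in wildtype replicates 1 to 5 and 10452, 69349, 12979, 14968 and 16127 in gene trap replicates 1 to 5. The 9 tumors other than gene trap replicate 2 stayed within 1.77-fold of each other, and that tumor was at 4.78 times their median. *Scarna2*, which guides methylation of U2 snRNA, was at 4711, 5543, 5108, 4956 and 4304 in wildtype replicates 1 to 5 and 4162, 12959, 5319, 5184 and 4541 in gene trap replicates 1 to 5. It was the most even of the 21 RNAs, since its highest value among those 9 tumors was 1.33 times its lowest, and it was at 2.62 times their median in gene trap replicate 2. *Scarna6*, inside *Atg16l1* on chromosome 1, lay within the range of the other tumors, with 963 in gene trap replicate 2 and 540.0 to 1369 in the others. The log2 fold changes of *Scarna10*, *Scarna2* and *Scarna6* were 0.42 ± 0.42, 0.25 ± 0.25 and -0.17 ± 0.24 (standard error) with 10 tumors. Without gene trap replicate 2 they were -0.05 ± 0.17, -0.04 ± 0.09 and -0.21 ± 0.26.

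Of the C/D box snoRNAs, 4 are shown with the sequence boxes that define them in capitals where they were found, the C box (TGATGA) near the 5′ end and the D box (CTGA) near the 3′ end. TGATGA, searched on the transcript strand, was found in the first 20 bases of 3 of the 5 C/D box snoRNAs and 2 of the 3 scaRNAs, against 0.842% of the 16509 annotated transcripts of 121 to 414 bases. CTGA was found in the last 20 bases of all 5 C/D box snoRNAs and all 3 scaRNAs, against 10.9% of those transcripts.
Snord17: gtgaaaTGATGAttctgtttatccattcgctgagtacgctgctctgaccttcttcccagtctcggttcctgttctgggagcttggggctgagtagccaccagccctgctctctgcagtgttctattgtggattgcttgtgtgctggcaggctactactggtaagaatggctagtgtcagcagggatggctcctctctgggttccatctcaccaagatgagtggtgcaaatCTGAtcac
Snord15b: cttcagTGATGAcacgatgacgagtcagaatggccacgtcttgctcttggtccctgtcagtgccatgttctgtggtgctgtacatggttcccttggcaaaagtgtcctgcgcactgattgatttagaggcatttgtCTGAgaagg
Snord15a: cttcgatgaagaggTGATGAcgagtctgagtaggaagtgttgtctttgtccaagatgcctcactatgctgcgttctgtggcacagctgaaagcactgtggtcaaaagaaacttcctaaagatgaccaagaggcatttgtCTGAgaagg
Snord22: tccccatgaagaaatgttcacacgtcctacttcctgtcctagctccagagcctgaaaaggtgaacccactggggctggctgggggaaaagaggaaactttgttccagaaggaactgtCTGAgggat

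*Snord15a* and *Snord15b*, both inside the ribosomal protein gene *Rps3* on chromosome 7, guide methylation of 28S rRNA and were identical at 64.2% of aligned bases. *Snord15b* was at 1425, 1676, 1149, 1208 and 832 in wildtype replicates 1 to 5 and 738, 7375, 1354, 1466 and 1542 in gene trap replicates 1 to 5. *Snord15a*, with lower values, was at 87.5, 106, 67.2, 84.7 and 66.4 in wildtype replicates 1 to 5 and 52.5, 506, 71.0, 86.3 and 99.1 in gene trap replicates 1 to 5. Both were highest in gene trap replicate 2, at 5.45 and 5.97 times the median of the other tumors, and the other gene trap tumors lay inside the wildtype range except replicate 1, which was below it. *Snord17*, inside *Snx5* on chromosome 2 and longer at 238 bases, lay within the range of the other tumors there. It was at 3307, 3875, 2397, 3139 and 1715 in wildtype replicates 1 to 5 and 1683, 3164, 2651, 2736 and 2703 in gene trap replicates 1 to 5, with the highest value in wildtype replicate 2.

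*Snord22*, or U22, which takes part in maturation of 18S rRNA, lies inside the host *Snhg1* on chromosome 19. Its values were 176, 341, 70.6, 138 and 0.814 in wildtype replicates 1 to 5 and 0.00013, 661, 160.5, 41.1 and 8.30 in gene trap replicates 1 to 5. They were the most scattered of the set, with an estimated count under 1 in wildtype replicate 5 and in gene trap replicate 1. Its log2 fold change was -0.94 (standard error 1.72), with a 95% interval from -4.69 to 2.81. *Rnu3a*, the U3 RNA needed for the first cuts of the ribosomal RNA precursor, was at 601, 473, 317, 546 and 219 in wildtype replicates 1 to 5 and 202, 598, 365, 599 and 551 in gene trap replicates 1 to 5. Gene trap replicate 2 lay inside the wildtype range there. Another annotated *Rnu3a* entry that is not analysed here was identical at 99.5% of bases, so its counts may be shared with that copy.

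The H/ACA box snoRNAs end with the letters ACA a few bases from the 3′ end. ACA lay in the last 6 bases of all 9, against 9.38% of the annotated transcripts of the same range of lengths. *Snora73a* and *Snora73b*, copies of the U17 RNA that is needed for cleavage of the ribosomal RNA precursor, lie near each other inside *Rcc1* and *Snhg3* on chromosome 4. They have 205 bases each and were identical at 96.6% of positions, and the 7 differing bases are in capitals.
Snora73a: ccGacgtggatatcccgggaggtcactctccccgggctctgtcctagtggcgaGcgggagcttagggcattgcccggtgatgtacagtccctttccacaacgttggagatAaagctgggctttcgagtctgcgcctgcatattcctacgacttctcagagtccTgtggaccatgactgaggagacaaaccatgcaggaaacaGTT
Snora73b: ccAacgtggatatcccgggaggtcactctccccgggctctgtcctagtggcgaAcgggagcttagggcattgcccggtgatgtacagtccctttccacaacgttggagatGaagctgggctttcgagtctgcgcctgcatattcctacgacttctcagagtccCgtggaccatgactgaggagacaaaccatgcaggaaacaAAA

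*Snora73a* was at 3240.3, 3290.2, 3893, 3561 and 2626 in wildtype replicates 1 to 5 and 2112, 5112, 2857, 3102 and 3152 in gene trap replicates 1 to 5. *Snora73b* was at 3060.5, 3140.5, 2946, 3176 and 1965 in wildtype replicates 1 to 5 and 1551, 6464, 2391, 2627 and 2761 in gene trap replicates 1 to 5. Both were highest in gene trap replicate 2 and lowest in gene trap replicate 1, and the other 3 gene trap values were below all wildtype values but that of replicate 5. The log2 fold changes were -0.07 (standard error 0.19) and -0.0046 (standard error 0.30) over 10 tumors. Without gene trap replicate 2 they were -0.25 (standard error 0.14) and -0.31 (standard error 0.18), with unadjusted limma p of 0.0926 and 0.124. The p of *Snora73a* was the smallest of the tested RNAs in that fit. Because reads of such similar RNAs can be assigned to either, the sum of both was taken too, and it gave means of 6179.8 ± 915 in wildtype and 6426 ± 3012 in gene trap tumors (SD, n = 5 each), and 5138 ± 1023 (SD, n = 4) in the gene trap group without replicate 2.

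*Snora74a*, the U19 RNA, went the other way in gene trap replicate 2. Its values were 491, 678, 508, 645 and 294 in wildtype replicates 1 to 5 and 263, 81.8, 467, 519 and 631 in gene trap replicates 1 to 5. The value of 81.8 in gene trap replicate 2 was the lowest of all and 0.161 times the median of the others, while in the other 9 tumors gene trap and wildtype overlapped. It had the smallest unadjusted p of the tested RNAs over 10 tumors, 0.191 by limma. Its log2 fold change was -0.65 (standard error 0.47), and -0.17 (standard error 0.28) without that tumor.

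The remaining H/ACA box snoRNAs were near the lower limit of the values tested, a mean of 10. *Snora26*, inside *Dancr* on chromosome 5, and *Snora21*, inside *Rpl23* on chromosome 11, lay furthest above the other tumors in gene trap replicate 2, and their sequences are shown with the ACA in capitals.
Snora26: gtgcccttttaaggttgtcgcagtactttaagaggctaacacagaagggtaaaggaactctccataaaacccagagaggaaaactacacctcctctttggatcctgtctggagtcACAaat
Snora21: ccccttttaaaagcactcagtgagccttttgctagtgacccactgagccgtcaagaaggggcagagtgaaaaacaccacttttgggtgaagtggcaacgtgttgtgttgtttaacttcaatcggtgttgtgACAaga

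*Snora26* was at 15.9, 23.0, 11.4, 19.2 and 9.96 in wildtype replicates 1 to 5 and 3.03, 71.3, 10.01, 14.8 and 12.4 in gene trap replicates 1 to 5. *Snora21* was at 21.9, 20.1, 13.8, 10.95 and 8.87 in wildtype replicates 1 to 5 and 7.26, 62.7, 12.7, 16.9 and 23.8 in gene trap replicates 1 to 5. Their values in gene trap replicate 2 were 5.78 and 4.56 times the median of the other tumors. *Snora23*, inside *Ipo7* on chromosome 7, ranged from 8.93 to 107 over the other 9 tumors and was 69.1 in gene trap replicate 2. *Snora78* on chromosome 17 ranged from 14.5 to 33.9 and was 37.9 there. *Snora15* and *Snora57* had means under 10 and were not tested, with 25.7 and 3.78 in gene trap replicate 2 against 0.987 to 14.3 and 4.28 to 8.75 in the others.

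**Figure D2:**
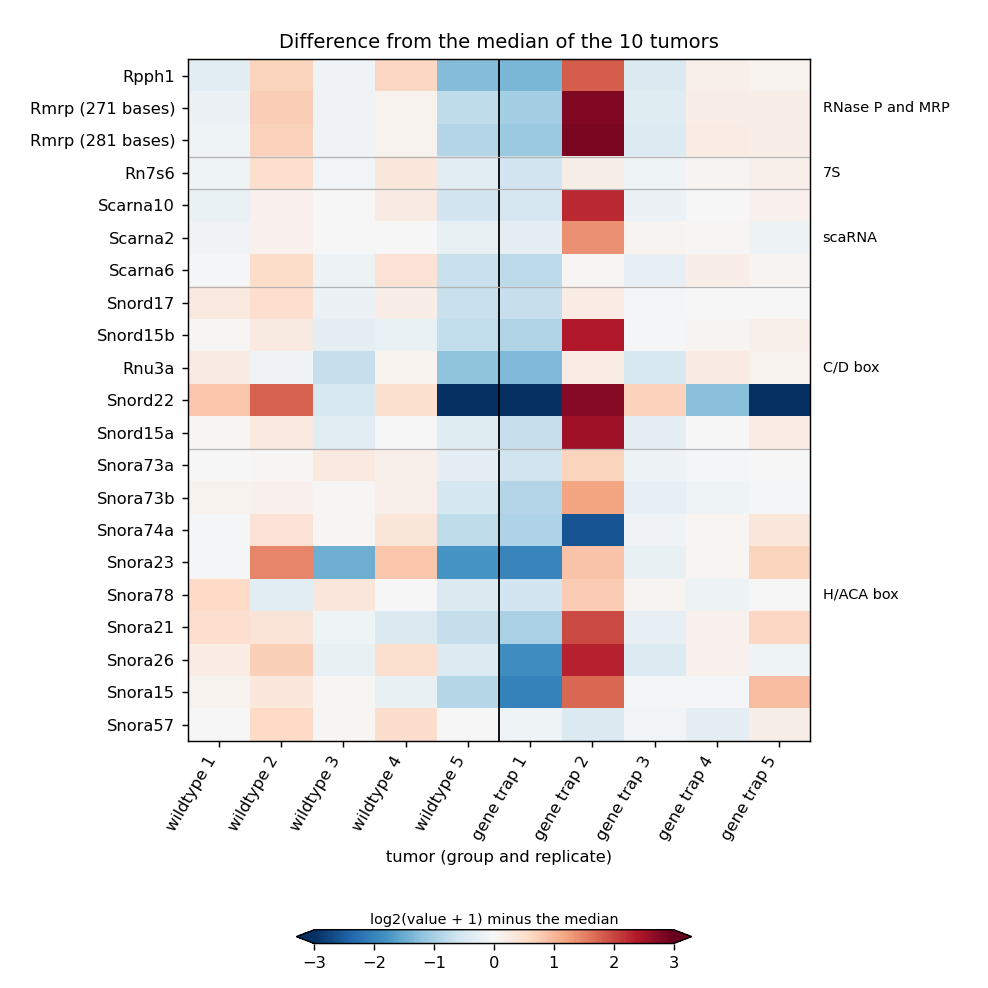
Difference of log2(value + 1) from the median of the 10 tumors (color, red above and blue below, saturated beyond 3) for each of the 21 RNAs (rows, by class) in each tumor (columns). The column of gene trap replicate 2 is red for most rows and blue for *Snora74a*, and the columns of wildtype replicate 5 and gene trap replicate 1 are mostly blue.

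The order of tumors was shared by RNAs of different classes. Gene trap replicate 2 was the highest of the 10 tumors for 14 of the 21 RNAs (66.7%), against 22.4% of all 21034 genes tested. It was at least 2-fold above the median of the other 9 tumors for 12 RNAs, within 2-fold for 8 and at least 2-fold below for 1, with a median ratio of 2.62 and a range from 0.161 to 9.37. Of all genes tested, 3.44% were at least 2-fold above and 7.44% at least 2-fold below in that tumor. Because the tumor was singled out for its short transcripts, these counts describe it and test nothing. By class, the summed level in gene trap replicate 2 over the median of the others was 4.87 for RNase P and MRP, 4.07 for scaRNAs, 2.51 for C/D box snoRNAs, 1.78 for H/ACA box snoRNAs and 1.202 for *Rn7s6*. Gene trap replicate 1 was the lowest of the 10 tumors for 18 of the 21 RNAs (85.7%, against 8.88% of all genes). With gene trap replicate 2 set aside, gene trap replicate 1 and wildtype replicate 5 were both among the 2 lowest of the 9 tumors for 20 of the 21 RNAs (95.2%, against 6.11% of all genes). Wildtype replicate 2 was the highest of these 9 for 14 RNAs (66.7%, against 14.2% of all genes). The tumors at the ends of the spread came from both groups.

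Short genes outside the set, small RNA genes with other names among them, moved with the same tumors. Over 49 genes that are no members of the set, have a longest annotated transcript under 300 bases and passed the minimum mean, the median log2 difference from the gene's own median was 1.13 in gene trap replicate 2, -0.48 in wildtype replicate 5 and -0.53 in gene trap replicate 1, and between -0.07 and 0.18 in the other 7 tumors. Over the 19 tested RNAs of the set the same measure was 1.36, -0.67 and -0.91 in those tumors. Most of the 49 genes are snoRNA and other small RNA genes whose symbols the rule does not match. Over the 37 tested small RNA genes outside the set, which largely overlap the 49, the measure was 1.27, -0.75 and -0.66 in the same tumors. Histone genes chosen by symbol summed to 209072 in gene trap replicate 2, 69593 in gene trap replicate 1 and 90339 to 144591 in the others. The mRNAs of replication-dependent histones also lack a poly(A) tail, but the symbols can take in other linker histones. The mitochondrial rRNA *mt-Rnr2* was 622490 in gene trap replicate 2 and 290493 to 440774 elsewhere. The 3 IDs of highest mean without a gene symbol, ENSMUSG00000118866 and ENSMUSG00000118841 among them, took 12.4% of the total in gene trap replicate 1 and 24.0% in gene trap replicate 2, the lowest and highest shares of the 10 tumors. Among cell type lists, the summed level of 5 fibroblast markers was 89558 in gene trap replicate 1, the highest of all tumors, and 64486 in wildtype replicate 5, the highest of the wildtype tumors, whereas it was 46768 in gene trap replicate 2. The 3 endothelial markers were lowest in gene trap replicate 2, at 1710 against 1915 to 3543 in wildtype tumors. The 4 epithelial markers had their highest sum in gene trap replicate 2 (91151), and sums of 70305 in gene trap replicate 1, the lowest of its group, and 72033 in wildtype replicate 5, against 67574 to 87021 in wildtype tumors. The 2 erythroid markers were lowest in gene trap replicate 2, at 3278 against 3919 to 52841 in wildtype tumors. The 2 measured adipocyte markers were highest of its group there, at 2907. Macrophage markers were highest of their groups in gene trap replicate 1 (3903) and wildtype replicate 5 (3845). Skeletal muscle markers were lowest of the group in gene trap replicate 1 (1099) and highest in wildtype replicate 5 (6907). Myoepithelial and T and B cell markers were at no end of their groups in these tumors. The part of transcript recovery and of tissue makeup in the values of the small RNAs was not tested.

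**Figure D3:**
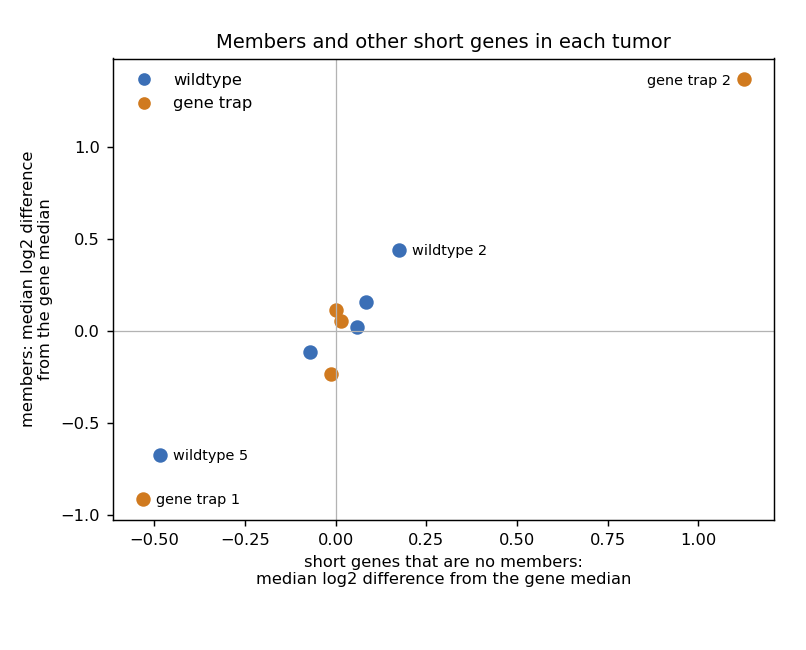
Median log2 difference from each gene's median over the 10 tumors for 49 short genes outside the set (x) and for the 19 tested RNAs (y), with 1 point per tumor, wildtype in blue and gene trap in orange. Most of the 49 genes are small RNA genes with other names. Gene trap replicate 2 lies at the upper right (1.13 and 1.36), and wildtype replicate 5 and gene trap replicate 1 at the lower left.

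The ratios in gene trap replicate 2 were also set against transcript length. Of the 8 RNAs under 150 bases, 6 were at least 2-fold above the median of the other tumors, with a median ratio of 5.00. Of the 13 RNAs of 150 bases or more, 6 were at least 2-fold above and 1 at least 2-fold below, with a median ratio of 1.89. Among 43 other genes annotated as small RNAs, 21 of 25 under 150 bases and 5 of 18 of 150 bases or more were at least 2-fold above, while 2 and 5 of them were at least 2-fold below. Their median ratios were 3.18 and 0.838. Among the longer RNAs of the set, *Rpph1*, both *Rmrp* IDs, *Scarna10* and *Scarna2* were 2.62 to 7.66 times the median of the other tumors, and *Snora73b* 2.34 times. The shortest of the 21 had 121 bases, the longest 414 and the median 205. GENCODE release 21 names another 160 genes that meet the rule and are not analysed here, of which 101 are under 121 bases and 59 are as long as the shortest of the 21 or longer.

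**Figure D4:**
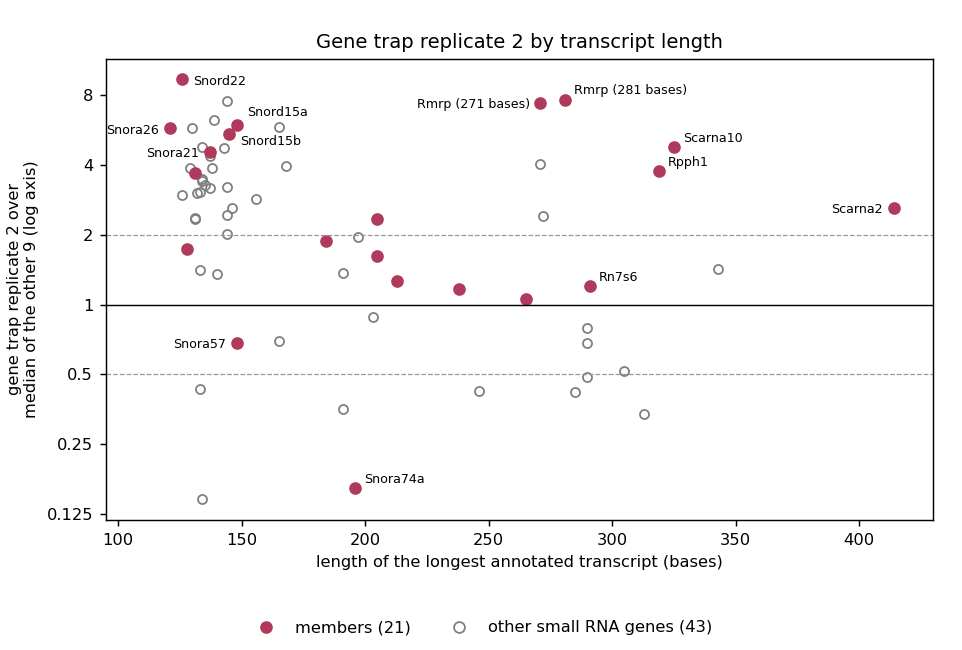
Ratio of the value in gene trap replicate 2 to the median of the other 9 tumors (y, log axis) against the length of the longest annotated transcript in bases (x) for the 21 RNAs (filled) and 43 other small RNA genes (open), with dashed lines at ratios of 2 and 0.5. Most points under 150 bases lie above 2, while *Rn7s6* lies near 1 and *Snora74a* at 0.161.

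The genotype comparison gave no call. Over the 10 tumors, 0 of 21034 genes (0%) and 0 of the 19 tested RNAs passed a Benjamini-Hochberg adjusted p of 0.05 by limma, and the smallest adjusted p of any gene was 0.9997. An unadjusted p under 0.05 was reached by 0 of the 19 RNAs, against 479 (2.28%) of all genes tested. Of the 19 RNAs, 10 were higher and 9 lower in gene trap tumors, with log2 fold changes from -0.94 (*Snord22*) to 0.52 (*Snord15b*) and a median of 0.07, against 0.00 over all genes. By class, 3 of 3 RNase P and MRP IDs, 2 of 3 scaRNAs, 3 of 5 C/D box snoRNAs and 2 of 7 H/ACA box snoRNAs were above 0, and *Rn7s6* was below. Of those 3 IDs, 2 are entries of the same *Rmrp* RNA. Exact two-sided permutation p-values of the 19 RNAs lay between 0.262 and 1, where 5 against 5 tumors allow 0.00794 at the least. The standard errors had a median of 0.47, against 0.16 over all genes.

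Without gene trap replicate 2, 9 of the 10 RNAs with a fold change above 0 moved below it. Again 0 of 21035 genes (0%) and 0 of 19 RNAs had an adjusted p under 0.05 by limma, and 0 of the RNAs against 398 (1.89%) of all genes had an unadjusted p under 0.05. With weights per tumor in the fit, *Snora73a* reached 0.0465 by limma with a log2 fold change of -0.31, where 562 of 21035 genes were under 0.05. In the other settings of these 9 tumors its limma p lay between 0.0806 and 0.544. In the fit without weights 18 of the 19 RNAs were lower in gene trap tumors and 1 higher, while 49.9% of all genes were lower. The median log2 fold change of the RNAs was -0.20, with a range from -2.02 (*Snord22*) to 0.00 (*Snord15b*). The exact permutation p-values lay between 0.151 and 1. The median standard error fell to 0.27 for the RNAs. *Scarna2* had the narrowest estimate, with a 95% interval of its log2 fold change from -0.24 to 0.17, whereas that of *Rpph1* ran from -1.23 to 0.62.

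The count of lower RNAs in this fit depended on which other tumors were kept. When gene trap replicate 1 was left out as well, 8 of 19 RNAs were lower, against 48.7% of all genes, and the median log2 fold change was 0.03. With wildtype replicate 2 left out instead, 13 of 19 were lower, against 49.4% of all genes, and the median was -0.06. When wildtype replicate 5 was left out instead, 19 of 19 were lower, against 50.9% of all genes, and 3 had an unadjusted p under 0.05, against 474 of 21012 genes. These were *Snora73b* (log2 fold change -0.44, limma's p 0.0183), *Snora73a* (-0.33, p 0.0236) and *Snord22* (-3.30, p 0.0244). Gene trap replicates 1 and 2 and wildtype replicate 5 were also all left out, a choice made after the values were seen. Then 16 of 19 RNAs were lower, against 49.7% of all genes, with a median of -0.13. In that fit 3 RNAs, against 267 of 20972 genes in all, had an unadjusted p under 0.05 by limma. They were *Snora73b* at -0.25 (p 0.0099), *Snora73a* at -0.20 (p 0.0465) and *Snord22* at -1.97 (p 0.0407). From the 10 tumors, leaving out gene trap replicate 1 gave 2 of 19 lower, against 48.5% of all genes, and a median of 0.36. In these fits limma gave 0 genes with an adjusted p under 0.05.

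**Figure D5:**
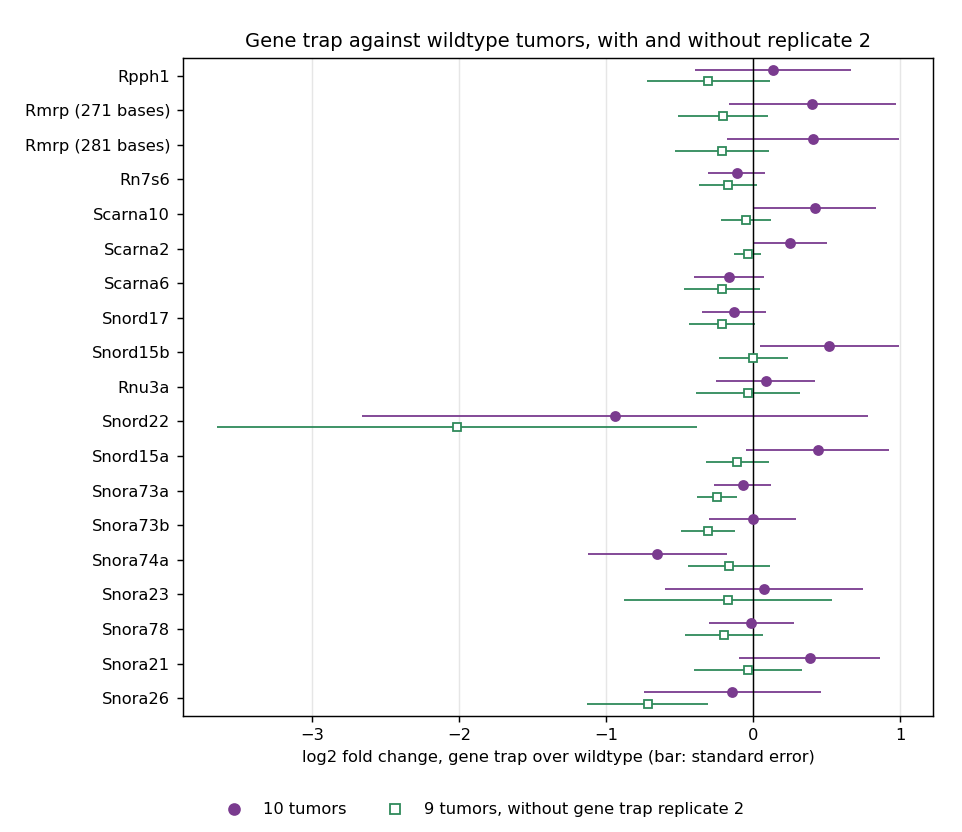
Log2 fold change of gene trap over wildtype tumors (x) with its standard error (bars) for the 19 tested RNAs (y) in the fit of 10 tumors (filled circles) and of 9 tumors without gene trap replicate 2 (open squares). All but 1 of the open squares lie below 0, and the filled circles are spread on both sides.

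The host genes were looked at beside the RNAs that lie in them. Of the 21 RNAs, 13 lie inside a gene on the same strand that is in the table, and these were 13 host genes. In gene trap replicate 2, 10 hosts were within 2-fold of the median of the other tumors and 3 at least 2-fold above. *Rps3* was 41085 there against 24791 to 33069 elsewhere, a ratio of 1.44, while *Snord15a* and *Snord15b* inside it were at 5.97 and 5.45. *Ncapd2* was at 0.978 of the median and its *Scarna10* at 4.78. *Rpl23* was at 0.896 and *Snora21* at 4.56. The noncoding hosts *Snhg3* and *Snhg1*, known mainly as carriers of snoRNAs, were raised too, *Snhg3* to 481.5 from 63.1 to 113.8 and *Snhg1* to 3808 from 1498 to 1946. *Snora73a*, *Snord22* and several of the other RNAs overlap exons of some annotated transcripts of their hosts, so reads there cannot be told apart. For *Snora74a*, which was lowest in that tumor, the values of its hosts were at 1.66 times the median of the others for *AC121821.1* and 2.18 times for *Gm28285*.

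The genes that make, carry or degrade these RNAs were taken from a list of 124, with 123 in the table and 122 tested. By limma 0 of them had an adjusted p under 0.05 in either direction, over 10 tumors or without gene trap replicate 2. At an unadjusted p under 0.05, 1 was higher and 0 lower with 10 tumors (84 above 0, 38 below, median log2 fold change 0.05), against 278 higher and 201 lower of all 21034 genes, of which 51.4% were above 0. Of the list, 1 was higher and 0 lower without that tumor (68 above 0, 54 below, median 0.01), against 212 higher and 186 lower of all 21035 genes, of which 50.1% were above 0. The smallest p among those above 0 were those of *Znhit6*, an assembly factor of C/D box snoRNPs, *Nop56*, a core protein of the same particles, and *Lsm2*, a subunit of the ring that binds U6. Their log2 fold changes were 0.30 ± 0.13, 0.19 ± 0.09 and 0.21 ± 0.10 (standard error), with unadjusted p of 0.0492, 0.0509 and 0.0640. In the fit of 9 tumors they were 0.16, 0.18 and 0.16, with p of 0.0749, 0.0765 and 0.128, so that *Znhit6* was under 0.05 with that tumor and above it without. Below 0 the smallest were 3 subunits of the Integrator, the complex that cuts the 3′ end of snRNA transcripts. *Ints4*, *Ints8* and *Ints9* were at -0.09 ± 0.07, -0.15 ± 0.12 and -0.09 ± 0.08, with p of 0.22, 0.228 and 0.309, and at -0.07, -0.05 and -0.10 without gene trap replicate 2, with p of 0.342, 0.604 and 0.267. None of these 6 passed the adjusted threshold. Without gene trap replicate 2 the 1 gene with an unadjusted p under 0.05 was *Prpf3*, a protein of the U4/U6 snRNP, with a log2 fold change of 0.21 and p of 0.0327, which is named here after its value was seen.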

How the data were processed

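RNA was measured in 5 wildtype and 5 gene trap mammary tumors whose columns could be matched to a label. Another 6 of the 16 columns of the table carried names that matched no label and were not used. The values are a signal: the authors deposited estimated counts that were already scaled between tumors (median ratios against the geometric mean of 1.005 to 1.006, and 0 zeros), so depth and whole reads are unknown. The submitters' processing notes name Partek, STAR (version 2.7.8a), DESeq2 and the build mm39, and the sources used here do not say how reads were shared between overlapping or repeated genes.

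A symbol was found for 22899 of the 23609 gene IDs (97.0%). Transcript sequences, lengths and gene positions came from GENCODE release 21 on GRCm38, so no coordinates are given. All 21 RNAs had an entry there. Sequences are shown for some of them only, and 1 that was chosen to be shown is not reported here. Values were converted to log2 after a pseudocount of 1 was added, which understates the change of low genes. Genes with a mean of at least 10 entered a limma fit (3.58.1, under R 4.3.3) on the group alone with a mean-variance trend, and p-values were adjusted by Benjamini-Hochberg over all genes tested, once with 10 tumors and once without gene trap replicate 2. Single RNAs were also compared by exact two-sided permutation over 252 or 126 arrangements of the tumors. The fit was tested on simulated data.

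The set, the list of 124 genes for making and carrying these RNAs, the marker lists and the fit without gene trap replicate 2 were chosen with earlier results of these data known. Genes named are *Resf1*, all members other than *Snora* and *Snord* with a mean of at least 10, the 6 highest of each of those families, the 5 with the smallest p in each direction in either fit, the 5 highest and lowest in gene trap replicate 2, and of the list of 124 the 3 with the smallest p in each direction. Host genes and the other *Snora* were named after their values were seen. The alternatives were each tumor left out, the replicate number as a block, quantile normalization, a weight for each tumor, a fit with no variance trend, other pseudocounts and filters, and scaling to short genes outside the set. Most of the short genes used for scaling are small RNA genes with other names, so the scaling uses RNAs of the same kinds. The fits without 3 tumors and the repeats of the 9-tumor fit were added after the values were seen. Plots used matplotlib 3.10.9 under Python 3.11.15.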

Additional observations from a re-analysis of the deposited data

Results flagged for a closer look

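In 5 of 48 groups of 5 tumors looked at, 1 value stood far from the other 4, where a chance of 1 in 20 gives 2.4. These were 24 measures in each of 2 genotypes. The measures were the 21 RNAs, *Resf1*, the sum of the RNAs and the median difference of short genes outside the set. They include both *Rmrp* IDs and share an order of tumors, so they are not independent. The number of 2.4 is therefore no yardstick for the 5. In the gene trap group, replicate 2 stood above the others for *Scarna10* (69349, others 10452 to 16127), *Scarna2* (12959, others 4162 to 5319) and *Snord15a* (506, others 52.5 to 99.1). Gene trap replicate 1 stood below the others for *Snord17* (1683, others 2651 to 3164). In the wildtype group, replicate 5 stood below the others for *Snora73b* (1965, others 2946 to 3176). The 3 tumors named are those at the ends of the spread of short transcripts outside the set.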

How the results depend on the processing

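Under every alternative, with 10 tumors or 9, limma called 0 genes at an adjusted p under 0.05, and the smallest adjusted p lay between 0.971 and 0.99999. Genes with an unadjusted p under 0.05 numbered 81 to 692 of all tested over the alternatives to the fit of 10 tumors. With the replicate number as a block there were 426. Of the 19 RNAs, 9 were then lower, against 48.6% of all genes, and their median log2 fold change was 0.07. Count and median of the RNAs were as without the block, which changed no call. The correlation of deviations of tumors with the same number lay between -0.16 and 0.15. The labels do not say whether the numbers pair the tumors, and these correlations cannot settle it. The count of RNAs lower in gene trap tumors lay between 2 and 18 of 19 when 1 of the 10 tumors was left out, with the median from -0.20 to 0.36, and between 8 and 19 when 1 of the 9 was. Of all genes, 48.0% to 49.9% and 48.7% to 50.9% were lower in these fits. Weights per tumor with 10 tumors gave 14 lower of 19, against 50.6% of all genes. None, or 0 of the RNAs against 580 of 21034 genes, had an unadjusted p under 0.05. With 9 tumors the weights gave 19 lower of 19, against 50.7% of all genes. There 1 RNA (*Snora73a*, -0.31, p 0.0465 by limma), against 562 of 21035 genes, had an unadjusted p under 0.05. Scaling to short genes outside the set gave a median over all genes of -0.16 with 10 tumors and 0.14 with 9, against 0.00 in both without it. It gave medians of the RNAs of -0.09 and -0.06, and 84.3% and 14.8% of all genes lower, against 48.6% and 49.9% without that scaling. The unadjusted p of *Resf1* rose above 0.05 with weights per tumor (-0.18), with no variance trend (-0.22) and with the scaling to short genes (-0.39), and its log2 fold change lay between -0.28 and -0.17 when 1 tumor was left out, with an unadjusted p above 0.05 without any one of wildtype replicates 1, 2 and 4 and gene trap replicates 2, 4 and 5.

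The log2 fold change of single RNAs changed sign in these settings. With weights per tumor over 10 tumors it was -0.12 for *Snora23*, -0.12 for the shorter *Rmrp*, -0.30 for *Rpph1*, -0.059 for *Rnu3a* and -0.13 for the longer *Rmrp*, and over 9 tumors -0.038 for *Snord15b*. With the scaling to short genes over 10 tumors it was -0.094 for *Snora23*, -0.031 for *Rpph1* and -0.081 for *Rnu3a*, and over 9 tumors 0.11 for *Snora21*, 0.031 for *Snord15a*, 0.10 for *Scarna2*, 0.087 for *Scarna10* and 0.10 for *Rnu3a*. Without gene trap replicates 1 and 2 and wildtype replicate 5 it was -0.030 for *Snora23*, -0.0085 for *Snord15a*, -0.13 for the shorter *Rmrp*, -0.019 for *Scarna2*, -0.053 for *Scarna10*, -0.28 for *Rpph1* and -0.14 for the longer *Rmrp*. When 1 of 10 tumors was left out the range was -0.25 to 0.069 for *Snora73a*, -0.32 to 0.54 for *Snora23*, -0.033 to 0.70 for *Snora21*, -2.23 to 0.33 for *Snord22*, -0.31 to 0.21 for *Snora73b*, -0.11 to 0.70 for *Snord15a*, -0.31 to 0.015 for *Snord17*, -0.20 to 0.74 for the shorter *Rmrp*, -0.038 to 0.37 for *Scarna2*, -0.20 to 0.14 for *Snora78*, -0.051 to 0.63 for *Scarna10*, -0.21 to 0.015 for *Rn7s6*, -0.31 to 0.49 for *Rpph1*, -0.72 to 0.32 for *Snora26*, -0.13 to 0.36 for *Rnu3a* and -0.21 to 0.77 for the longer *Rmrp*. When 1 of the 9 was left out it was -0.56 to 0.36 for *Snora23*, -0.28 to 0.25 for *Snora21*, -0.14 to 0.24 for *Snord15b*, -0.36 to 0.089 for *Snora74a*, -0.24 to 0.063 for *Snord15a*, -0.38 to 0.052 for the shorter *Rmrp*, -0.090 to 0.028 for *Scarna2*, -0.17 to 0.070 for *Scarna10*, -0.61 to 0.021 for *Rpph1*, -0.25 to 0.29 for *Rnu3a* and -0.42 to 0.062 for the longer *Rmrp*. The cause was not tested. Depth is unknown, and the number of tumors and the spread of gene trap replicate 2 limit the precision.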
